A study of Macaca mulatta with 6 samples.

Results

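GFAP, S100B, AGT, APOE and ALDH1L1 are 5 genes commonly used to mark astrocytes, and they were measured here in tissue that had been cut out as serotonin neurons. They were read out by 8 of the 52766 transcript probe sets on the array, namely every probe set whose platform annotation gives exactly 1 gene symbol and that symbol is one of the 5. APOE had 3 such probe sets, GFAP had 2, and S100B, AGT and ALDH1L1 had 1 each. All 8 passed the filter on low signals, which takes the mean over all 6 arrays, so bright arrays can carry a probe set through.

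The samples were serotonin neurons taken by laser capture, a technique that cuts chosen cells out of a tissue section, from the dorsal raphe nucleus of 6 female rhesus macaques, with 1 array per animal. Steroid capsules had been under the skin for 1 month, and 2 animals had received estrogen and progesterone, 2 estrogen alone and 2 placebo. The titles of the placebo samples include Ovx, taken to mean ovariectomized, whereas the hormone titles name only the treatment, and no ages are given in the labels. With 2 animals in each group the precision of every difference below is low, and p-values rest on the spread between single animals.

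Astrocytes are the glial cells that clear glutamate and potassium around neurons and supply them with metabolites and lipids. GFAP is their intermediate filament protein, S100B a calcium-binding protein that astrocytes also release, AGT the precursor of angiotensin, APOE the main lipid carrier of the brain, and ALDH1L1 a folate enzyme. GFAP is known from rodents to vary with ovarian steroids in some brain regions, and estrogen is known to raise AGT in the liver. In RNA from captured tissue, fewer cells of a type and less RNA per cell cannot be told apart.

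The arrays differed in quality along with treatment. The floor of an array, below which 95% of 59 probe sets without a monkey target fall, lay at signals of 74.9 and 283 with estrogen plus progesterone, 29.99 and 51.6 with estrogen, and 216 and 221 with placebo. Between 49.6% and 62.2% of probe sets were above the floor on both estrogen arrays and on animal 1 of estrogen plus progesterone (high-signal arrays), against 28.7% to 37.3% on both placebo arrays and on animal 2 of estrogen plus progesterone (low-signal arrays). The ratio of the 3′ to the 5′ control probe set of GAPDH, which is large where RNA is broken or copied short, was 21.97 and at least 266 with estrogen plus progesterone, 28.0 and 3.41 with estrogen, and at least 343 and at least 498 with placebo, the bounds being set against the floor. The ACTB ratio was 33.9 and at least 2.88 with estrogen plus progesterone, 31.3 and 10.9 with estrogen, and at least 56.4 and at least 23.6 with placebo. Animal 2 of estrogen plus progesterone correlated with the other member of its pair at r = 0.000477 across tested probe sets, which are not independent replicates.

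Of the other markers checked, TPH2, the enzyme that defines serotonin neurons, was above the floor on 2 of 6 arrays, both with estrogen. Its signals were 12.5 and 243 with estrogen plus progesterone, 54.0 and 63.2 with estrogen, and 126 and 211 with placebo. The 2 estrogen arrays had the lowest floors (29.99 and 51.6), so their passing does not show a higher TPH2 signal with estrogen. FEV, GATA3 and GCH1 were above the floor on all 6. SLC6A4 and DDC, a transporter and an enzyme of the same cells, were not analysed here. Among astrocyte markers 10 of 12 were named on the array. They were above the floor for 9 and 6 genes with estrogen plus progesterone, 9 and 10 with estrogen, and 8 and 8 with placebo. GLUL, SLC1A3 and ALDOC, further genes of astrocytes, were above it on all 6 arrays, and SOX9 on 1. The captured tissue thus gave signal from astrocyte genes whichever treatment the animal had received.

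GFAP was among the brightest transcripts on every array. Its brighter probe set, MmuSTS.4827.1.S1_at, had signals of 13706 and 756 with estrogen plus progesterone, 12884 and 18296 with estrogen, and 5358 and 2224 with placebo. All 6 arrays had it above the floor, and it was never below the 98.3th percentile of an array. Both estrogen arrays were above both placebo arrays, while the pair given both hormones held one array near the estrogen level and one below placebo. The log2 difference was 1.80 ± 1.02 (SE, n = 2 monkeys per group) for estrogen minus placebo, -0.14 ± 1.02 for estrogen plus progesterone minus placebo and -1.94 ± 1.02 for estrogen plus progesterone minus estrogen.

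The dimmer GFAP probe set, MmuSTS.1721.1.S1_at, had signals of 492 and 70.0 with estrogen plus progesterone, 351 and 521 with estrogen, and 208 and 236 with placebo. The order of the arrays was close to that of the brighter probe set, but placebo lay at the floor, with 1 of 2 arrays above it, as did 1 of 2 with estrogen plus progesterone. Its log2 differences in the same order of comparisons were 1.26 ± 1.04, -0.03 ± 1.04 and -1.29 ± 1.04.

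S100B, measured by MmuSTS.2362.1.S1_at, had signals of 16817 and 213 with estrogen plus progesterone, 14674 and 15830 with estrogen, and 5914 and 9119 with placebo. On 5 arrays it was at or above the 99.8th percentile, and on animal 2 of estrogen plus progesterone it was below the floor, at the 58.5th. Apart from that animal its normalized log2 levels spanned 1.09, the narrowest span but that of AGT among the 8 probe sets. The log2 difference was 0.90 ± 1.64 for estrogen minus placebo, -2.55 ± 1.64 for estrogen plus progesterone minus placebo and -3.46 ± 1.64 for estrogen plus progesterone minus estrogen.

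AGT, measured by MmuSTS.3785.1.S1_at, had signals of 4768 and 375 with estrogen plus progesterone, 5754 and 3476 with estrogen, and 1556 and 1612 with placebo. It was above the floor on all 6 arrays. On deposited signals both estrogen arrays were above both placebo arrays, but after quantile normalization the groups overlapped, and estrogen minus placebo came to 0.26 ± 1.02 on the log2 scale, against 1.49 without normalization between arrays. For estrogen plus progesterone the log2 difference was -1.16 ± 1.02 from placebo and -1.43 ± 1.02 from estrogen. Without animal 2 of that group the 5 remaining arrays lay within 0.55 of each other on the log2 scale.

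APOE stood furthest apart between estrogen and placebo. Probe set 1, MmugDNA.17966.1.S1_x_at, had signals of 2444 and 18.3 with estrogen plus progesterone, 3638 and 6979 with estrogen, and 333 and 269 with placebo. Probe set 2, MmugDNA.31898.1.S1_s_at, had 1747 and 39.3 with estrogen plus progesterone, 2703 and 5250 with estrogen, and 77.6 and 26.8 with placebo. Probe set 3, the dimmest, had 289 and 142 with estrogen plus progesterone, 311 and 1122 with estrogen, and 16.8 and 200.3 with placebo. All 3 probe sets had both estrogen arrays above the other 4, and by the array maker's naming probe sets 1 (x) and 2 (s) may also take up other transcripts of like sequence.

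For estrogen minus placebo the APOE log2 differences were 3.41 ± 1.57, 5.62 ± 1.41 and 3.09 ± 1.09 for probe sets 1, 2 and 3 (SE, n = 2 monkeys per group). Probe sets 2 and 3 did not exceed the floor on either placebo array, so they have only a bound there, higher with estrogen by at least 13.3-fold and at least 3.17-fold. Probe set 1, measured on all 4 arrays, ranked 171 of the 26383 differences tested. The fitted value of 5.62 was the highest of them, but it and its interval are set against placebo signals not above background, so its rank is not established. As fitted, the 95% intervals of probe sets 2 and 3 ran from 2.48 to 8.77 and from 0.65 to 5.53, and that of probe set 1 from -0.10 to 6.92. None passed the test over all probe sets, with adjusted p from limma of 0.636, 0.635 and 0.635.

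With estrogen plus progesterone the APOE log2 differences from placebo were -0.51 ± 1.57, 2.19 ± 1.41 and 1.54 ± 1.09, and those from estrogen were -3.92 ± 1.57, -3.43 ± 1.41 and -1.55 ± 1.09. Animal 1 of that pair was well above the floor in all 3 probe sets and animal 2 below it in all 3, so these means lie between animals that do not resemble each other.

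ALDH1L1, measured by MmugDNA.32182.1.S1_at, had signals of 153 and 102 with estrogen plus progesterone, 57.2 and 357 with estrogen, and 50.2 and 243 with placebo. The groups overlapped in all 3 comparisons, and the gene was above the floor on 4 of 6 arrays. Its log2 differences were 1.16 ± 1.03 for estrogen minus placebo, 0.42 ± 1.03 for estrogen plus progesterone minus placebo and -0.74 ± 1.03 for estrogen plus progesterone minus estrogen.

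**Figure D1:**
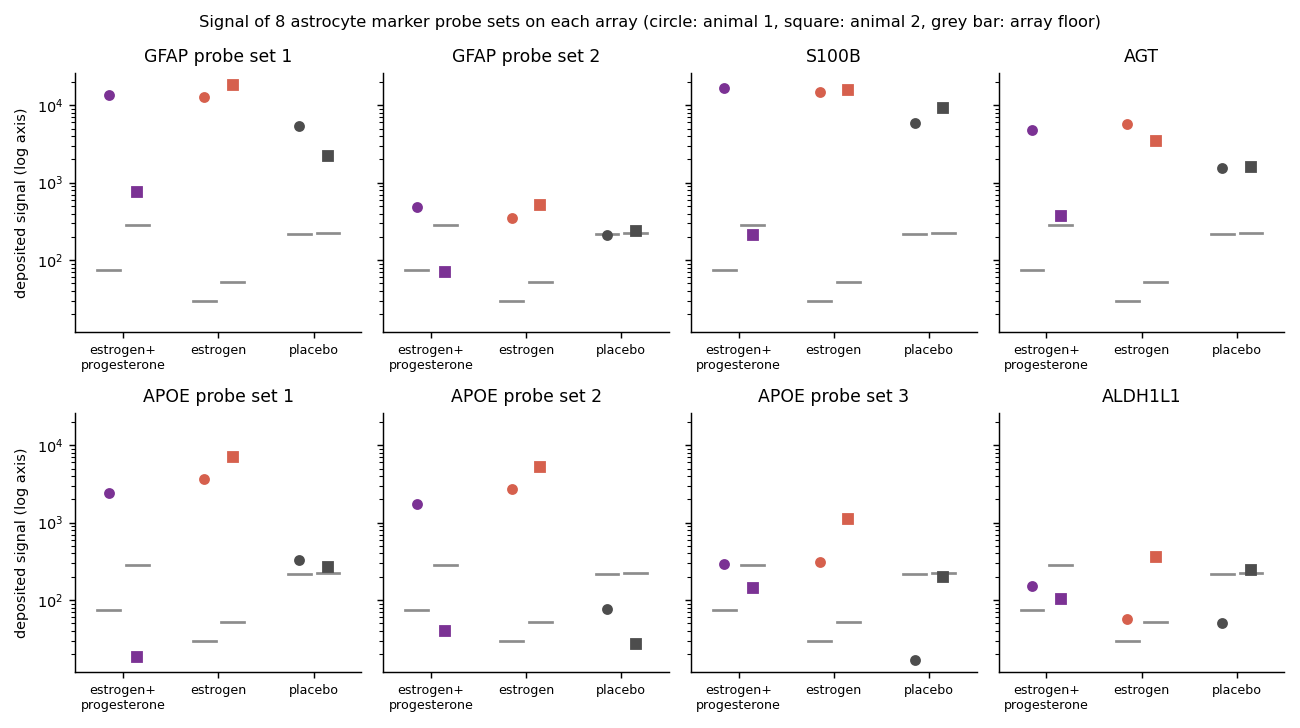
Deposited signal (log axis) of the 8 probe sets on each array, by group, with grey bars at each array's floor. Both estrogen arrays lie above both placebo arrays in all but ALDH1L1, and animal 2 of estrogen plus progesterone (square) is above its floor in 2 of 8, GFAP probe set 1 at 756 and AGT at 375.

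The same animals were often at the ends of the range, though not for every gene. On normalized values animal 2 of estrogen was highest of the 6 in 6 of 8 probe sets, and animal 2 of estrogen plus progesterone was lowest in 5 of 8. The 3 high-signal arrays had all 8 above the floor, against 2 on animal 2 of estrogen plus progesterone and 4 and 6 with placebo. Within the pair given both hormones the log2 gap between animals had a median of 2.87 over the 8 probe sets, against 1.55 over all tested. Within the estrogen pair it was 1.07 against 0.39, and within the placebo pair 0.75 against 0.92.

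Set against placebo, estrogen alone gave higher values throughout without any passing the test. All 8 probe sets had a log2 difference above 0, as had 55.2% of those tested, and the median of the 8 was 1.53 against 0.17 over all tested. The groups did not overlap in 6 of 8, all higher with estrogen, against 29% of the probe sets tested, and AGT and ALDH1L1 overlapped. No member passed, with adjusted p from limma between 0.635 and 0.951, and neither did any other probe set (0% called). At an unadjusted p under 0.05 there were 2 of 8 members, APOE probe sets 2 and 3, both higher, and 7.83% of all tested, with 4.59% of all tested higher.

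Array weights were 0.320 for estrogen plus progesterone, 3.95 for estrogen and 0.793 for placebo. With 2 arrays and a fitted mean per group they are equal within a pair by construction, and reflect only how closely its animals agreed. With them 1 of the 8 passed in limma, APOE probe set 2 (adjusted p = 0.0280), among 434 probe sets (1.64% called, 1.09% higher). That probe set was below the floor on both placebo arrays. Over the other settings its adjusted p ran from 0.133 to 0.99997. Both estrogen arrays were high-signal and both placebo arrays low-signal, so treatment and array quality cannot be told apart between them. A covariate for signal class rests on the animals given both hormones alone. With it 6 of 8 differences were below 0, and APOE probe sets 2 and 3 stood at 0.68 and 1.39. Most genes were below 0 too, with 38.0% of 9781 genes above 0 and a median of -0.19 over all tested probe sets.

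Other cell types were read beside these differences, as the mean normalized log2 signal of each marker list. The astrocyte list of 10 genes, the 5 members included, stood at 11.34 and 8.53 with estrogen plus progesterone, 11.25 and 11.91 with estrogen, and 10.31 and 9.81 with placebo. General neuron markers (8 of 12 named on the array) stood at 10.87 and 8.85 with estrogen plus progesterone, 10.96 and 10.95 with estrogen and 10.38 and 10.91 with placebo. Oligodendrocyte markers (6 of 13) stood at 11.56 and 8.27 with estrogen plus progesterone, 11.52 and 11.39 with estrogen and 10.99 and 11.39 with placebo. Serotonin neuron markers (8 of 10) stood at 7.38 and 7.80 with estrogen plus progesterone, 7.44 and 7.37 with estrogen, and 7.71 and 7.51 with placebo. Of these 8, 5 and 4 were above the floor with estrogen plus progesterone, 6 and 7 with estrogen, and 4 and 5 with placebo. LMX1B was above it on 1 of 6 arrays, animal 2 of estrogen plus progesterone, at 587. The serotonin neuron means therefore include signals not above background. Summed astrocyte signals were 84215 and 4272 with estrogen plus progesterone, 76150 and 87278 with estrogen, and 23887 and 25489 with placebo. Summed general neuron signals were 33108 and 3430 with estrogen plus progesterone, 34591 and 33976 with estrogen, and 11908 and 16713 with placebo. Those of oligodendrocytes were 58793 and 3065, 44041 and 58189, and 35585 and 49913 in the same order of groups. The sums are of deposited signals, before normalization between arrays. Microglia (10 of 10 on the array) had 7 and 3 markers above the floor with estrogen plus progesterone, 10 and 9 with estrogen, and 7 and 9 with placebo, and endothelium (6 of 6) had 4 and 1, 5 and 5, and 2 and 3 in the same order of groups. Ependymal markers (6 of 7) had 3 and 1, 6 and 4, and 3 and 2, and erythrocyte markers (2 of 4) 1 and 1, 1 and 2, and 2 and 2. The endothelial marker FLT1 was above the floor on 0 of 6 arrays. The part of other cell types in the astrocyte values was not tested.

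**Figure D2:**
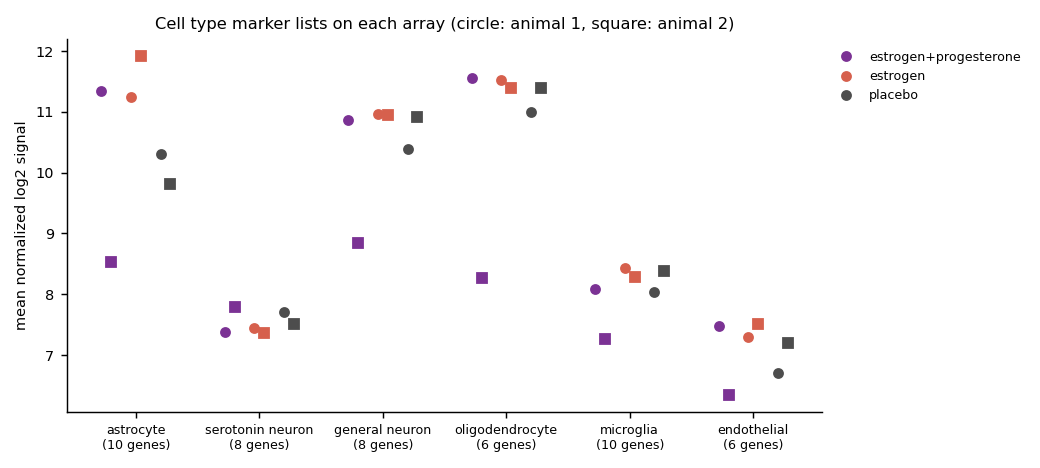
Mean normalized log2 signal of 6 cell type marker lists on each array, by group. The astrocyte list lies higher on both estrogen arrays (11.25 and 11.91) than on both placebo arrays (10.31 and 9.81). Animal 2 of estrogen plus progesterone is low in every list shown but that of serotonin neurons, where 4 of 8 genes were above its floor.

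Estrogen plus progesterone showed no common direction against placebo. Differences were above 0 in 3 of 8 probe sets and below 0 in 5, with a median of -0.09 against -0.03 over all tested, where 48.8% were above 0 and 51.2% below. The groups overlapped in all 8, whereas 12.4% of the probe sets tested did not overlap and were higher and 12.3% were lower. Adjusted p from limma lay between 0.992 and 0.999, with 0% of all probe sets called. At an unadjusted p under 0.05 there were 0 of 8 members and 3.3% of all tested.

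The 2 animals given both hormones gave opposite pictures. Without animal 2, the remaining high-signal array lay above placebo in all 8 probe sets, as did 56.8% of those tested, by 4.66, 2.43 and 2.39 for APOE probe sets 2, 1 and 3, 1.45 and 1.02 for GFAP probe sets 2 and 1, 1.12 for ALDH1L1, 0.63 for S100B and 0.23 for AGT. Without animal 1, the remaining array was compared with placebo among low-signal arrays only. Fitted values were below placebo in 7 of 8, as were 53.1% of those tested. GFAP probe set 1 and AGT, above the floor on all 3 arrays, differed by -1.30 and -2.55. S100B and APOE probe set 1 were below the floor on animal 2. On the normalized scale they were lower than placebo by at least 35.7-fold and at least 1.26-fold. The deposited signal of APOE probe set 1 on animal 2 of placebo, 269, was under that floor of 283. Its bound therefore depends on the normalization. GFAP probe set 2 and ALDH1L1 were also below the floor on animal 2, with no bound above 1. APOE probe sets 2 and 3 were below the floor on all 3 arrays, so no fold is given. A single remaining array is assumed in these fits to vary like the other groups.

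The comparison of estrogen plus progesterone with estrogen asks what progesterone added. All 8 probe sets had a difference below 0, as had 57.4% of those tested, and the median was -1.74 against -0.22. In 5 of 8 the groups did not overlap, against 16.6% of all tested that were lower, and these were GFAP probe set 1, S100B and the 3 of APOE. For GFAP probe set 1 and S100B the deposited signals of the groups did overlap. All 5 but GFAP probe set 1 were below the floor on animal 2 of estrogen plus progesterone, so their fitted means depend on signals not above background. Adjusted p from limma lay between 0.799 and 0.828, with 0% of all probe sets called and 2 of 8 members, APOE probe sets 1 and 2, at an unadjusted p under 0.05, against 1.76% of all tested and 0.277% that were lower.

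These differences were larger in size with animal 2 of estrogen plus progesterone than without it. Without it, among high-signal arrays alone, they were -0.98, -0.96 and -0.70 for APOE probe sets 1 to 3, -0.77 and 0.19 for GFAP probe sets 1 and 2, -0.27 for S100B and -0.04 each for AGT and ALDH1L1. All but GFAP probe set 2 thus stayed below 0, AGT and ALDH1L1 barely, where the median of all tested was 0.05 and 55.2% of 9781 genes were above 0. For GFAP probe sets 1 and 2, S100B and AGT the SE (0.85, 0.66, 0.65 and 0.67) was larger than the difference, so these signs are not established. With animal 2, a low-signal array, as the only one of its group against 2 high-signal arrays, limma called 5 of 8 members, all lower, where 15.9% of the probe sets tested were called and 10.3% were called lower. AGT, above the floor on all 3 arrays, stood at -2.81 (adjusted p = 0.0420). The other 4 were below the floor on animal 2. Bounds on the normalized scale put S100B lower by at least 66.8-fold, APOE probe sets 1 and 2 by at least 13.3-fold and at least 10.2-fold, and GFAP probe set 2 by at least 1.88-fold. General neuron and oligodendrocyte markers were lower on animal 2 as well, as given above, and their part in these values was not tested.

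**Figure D3:**
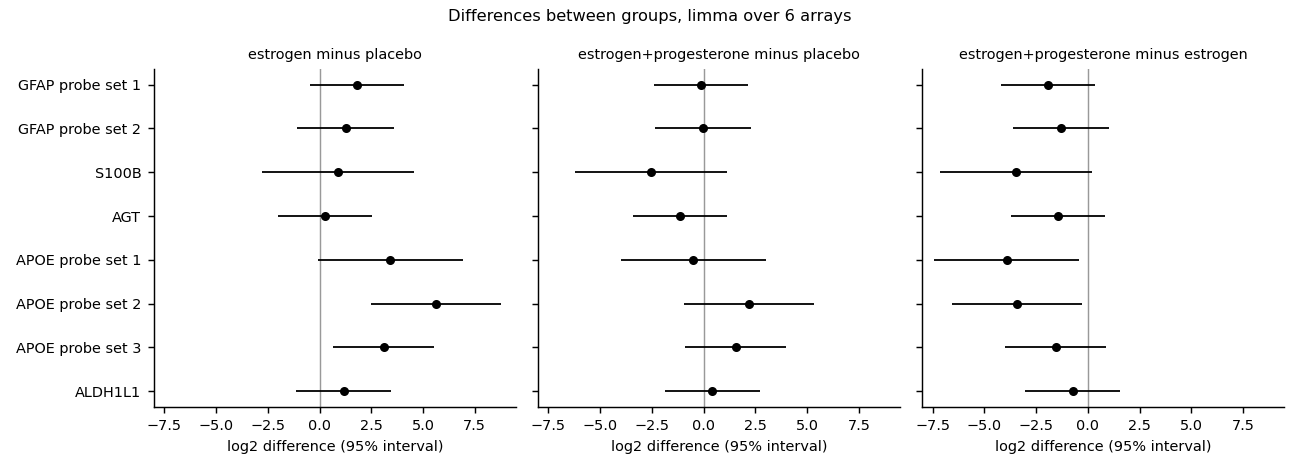
Log2 difference of the 8 probe sets in the 3 comparisons, with 95% intervals from limma over 6 arrays. Intervals leave out 0 for APOE probe sets 2 and 3 in estrogen minus placebo and for APOE probe sets 1 and 2 in estrogen plus progesterone minus estrogen, and no difference passed adjustment over all probe sets.

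Within the pair given both hormones, animal 2 was lower than animal 1 by -2.33 for GFAP probe set 1 and -2.78 for AGT on the normalized log2 scale, where the median of all tested was -0.40. The other 6 probe sets were below the floor on animal 2 and have only a bound, on the same scale. S100B was lower there by at least 55.4-fold, APOE probe sets 1, 2 and 3 by at least 6.77-fold, at least 5.22-fold and at least 1.49-fold, and GFAP probe set 2 by at least 2.15-fold, while ALDH1L1 had no bound above 1. These bounds set no order among the genes below the floor. GFAP probe set 1 on animal 2 was still at the 98.3th percentile of its array, where S100B was at the 58.5th and APOE probe set 1 at the 5.2th.

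Genes around the 5 markers were read in 7 lists, each gene by its brightest tested probe set, and 0 list genes passed over all probe sets in either direction in any of the 3 comparisons. Other astrocyte genes had 13 tested of 28, of which 9 were above 0 for estrogen minus placebo, with a median log2 difference of 0.98 against 0.28 for all 9781 genes, where 60.6% were above 0. SLC1A2, a glutamate transporter, had signals of 8965 and 4917 with estrogen and 1947 and 46.7 with placebo (log2 difference 3.52 ± 1.65). The placebo value of 46.7 was below the floor, so this difference rests partly on background. The glycolytic enzyme gene ALDOC stood at 1.78 ± 1.03, and SLC4A4, a bicarbonate transporter, at -2.12 ± 1.11. With signal class in the fit this list had a median of -0.69 against -0.50 for all genes.

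Reactive astrocyte genes, which are raised in injured brain, were above 0 for 9 of 12 tested (median 0.88), with the small heat shock protein gene CRYAB at 1.39 ± 1.13 and the metalloproteinase inhibitor gene TIMP1 at 1.31 ± 0.96. CD109 had signals of 71.8 and 84.9 with estrogen and 33.6 and 152 with placebo, both placebo values below the floor, and no bound above 1. Genes listed as filament partners of GFAP were above 0 for 1 of 4 (median -0.17), namely VIM at 1.21 ± 1.32, while PLEC stood at -0.29 ± 1.13. The neurofilament gene NEFH, at -0.84 ± 0.84, is also on the general neuron list, so this median is not one of astrocyte filaments alone. VIM and SYNM are on both the reactive and the filament list. TIMP1 and VIM were above the floor on 1 of 2 placebo arrays, so their differences rest partly on background. The filament median was 0.60 without normalization between arrays, where that of all genes was 0.26. It was 1.85 with median-centering, where that of all genes was 1.503. Median-centering shifts each array by 1 constant, so the gap to all genes is the same in both by construction. With the signal class the median was -2.14 for filaments and -1.15 for the reactive list, against -0.50 for all genes.

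Genes of APOE lipid transport were above 0 for 6 of 6 tested of 16, with a median of 1.74. They included SORL1, a sorting receptor, with signals of 2189 and 1815 with estrogen and 379 and 196 with placebo (2.37 ± 1.07), APOD, another lipid carrier, with 1100.2 and 1485 with estrogen and 85.4 and 487 with placebo (2.15 ± 1.22), and LCAT, which esterifies cholesterol. SORL1 at 196 and APOD at 85.4 were below the floor on 1 placebo array each, so their differences rest partly on background. LCAT had signals of 102 and 881 with estrogen and 191 and 27.3 with placebo, both placebo values below the floor, and was higher with estrogen by at least 2.10-fold after normalization, although the deposited signals overlapped. With the signal class 1 of 6 was above 0 and the median was -0.49, near that of all genes (-0.50, with 38.0% above 0). Genes of the renin-angiotensin system were above 0 for 2 of 5, median -0.44, with the receptor gene AGTR1 at -1.12 ± 0.82, the aminopeptidase gene ENPEP at -0.81 ± 0.81 and the protease gene CTSD at 1.12 ± 1.05. CTSD was above the floor on 1 of 2 placebo arrays. The list median minus that of all genes was -0.72, and it was -0.51 without normalization between arrays. Median-centering and scaling to hybridization controls shift each array by 1 constant, so they give the same -0.51 by construction.

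S100 family genes and their receptor were above 0 for 4 of 8 (median -0.08), with S100A1 at -1.19 ± 0.82 and S100A4 at 0.67 ± 0.86. S100A16 had signals of 534 and 447 with estrogen and 78.7 and 172 with placebo, both placebo values below the floor, and was higher with estrogen by at least 2.64-fold after normalization. Folate enzymes were above 0 for 7 of 11 (median 0.21), with MTHFD1 at 1.64 ± 1.15, FTCD at -1.27 ± 1.13 and FPGS, which adds glutamates to folate, at -1.90 ± 0.85. S100A4 and MTHFD1 were above the floor on 1 of 2 placebo arrays, so their differences rest partly on background. Without normalization between arrays the S100 median was 0.11 and the folate median -0.44, against 0.26 for all genes.

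For estrogen plus progesterone minus placebo the list medians were -0.01 for other astrocyte genes, 0.06 for reactive genes, 0.61 for APOE lipid transport and -0.76 for the renin-angiotensin system, against -0.10 for all genes. For estrogen plus progesterone minus estrogen they were -0.89, -0.47, -1.49 and -1.31, against -0.44. Without animal 2 of that group the last 4 medians were 0.03, 0.20, -0.26 and -0.27, against 0.05 for all genes. All tested APOE lipid transport genes were below the floor on that animal, as were ENPEP, ANPEP and CTSD of the renin-angiotensin list. So were VIM, CD44, LCN2, OSMR, S100A10 and TIMP1 of the reactive list. The medians that include animal 2 therefore rest partly on signals not above background.

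**Figure D4:**
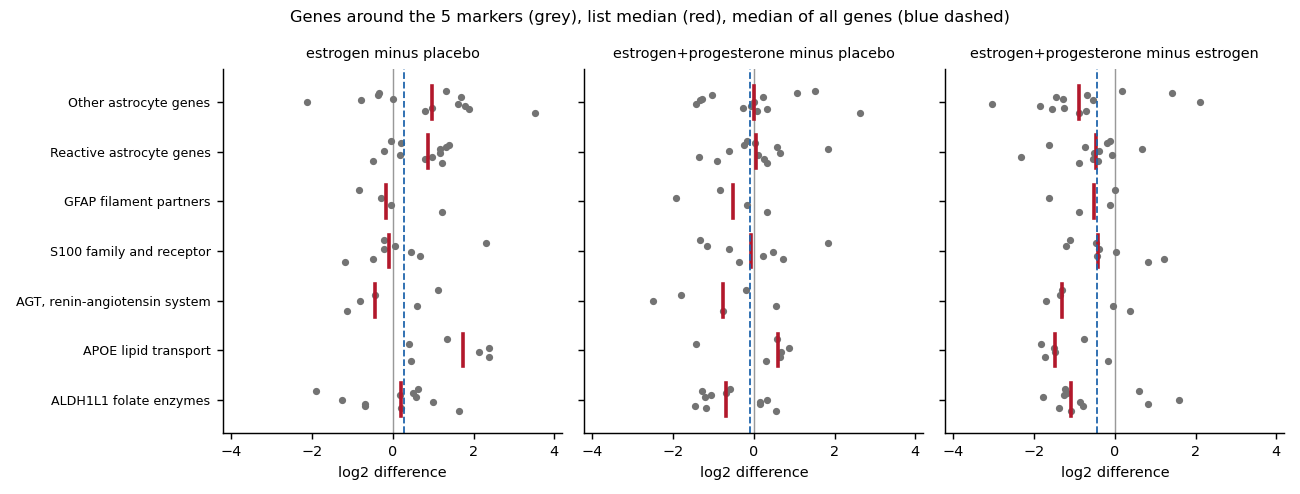
Log2 differences of genes in the 7 lists (grey points), list medians (red) and the median of all genes (blue dashed) in the 3 comparisons. For estrogen minus placebo the APOE lipid transport genes lie on one side of 0 with a median of 1.74, and the renin-angiotensin genes spread over both sides with a median of -0.44.

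Likeness to each marker was measured as Pearson's r of normalized log2 signal over the 6 arrays, among 9129 other named genes. The genes most like GFAP were AP2M1, IDH3B, ALDOC, AKR1D1 and OAZ1, at r of 0.988 to 0.992. For APOE they were SNF8, BTBD16, KIF3B, GTF2E2 and MPDU1 (0.995 to 0.997), and for ALDH1L1 they were CSNK1A1, CHM, RRN3, IK and SERPINA3 (0.980 to 0.994). For S100B they were BUD31, PKD2, MRPL40, AP1B1 and LONP1 (0.998 to 0.999), and for AGT they were ARAP2, MPHOSPH10, NUDT4, UBE2L3 and FAM127A (0.996 to 0.997). An r of at least 0.95 was reached by 108 genes for GFAP, 234 for APOE, 17 for ALDH1L1, 802 for S100B and 677 for AGT. Animal 2 of estrogen plus progesterone was among the 2 arrays furthest from the median for every marker but ALDH1L1, and without those 2 arrays the r of FAM127A with AGT was 0.374.

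Among the markers themselves GFAP and APOE were most alike by rank, with r = 0.955 and Spearman's rho = 1.0, and APOE ranked 87 among the genes most like GFAP. S100B and AGT had r = 0.985 with rho = 0.543, and r was 0.906 without the 2 arrays furthest out for S100B and 0.295 without those furthest out for AGT. ALDH1L1 had r of 0.355 to 0.623 with the other 4. These values share arrays of unequal signal and are descriptions of 6 animals.

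**Figure D5:**
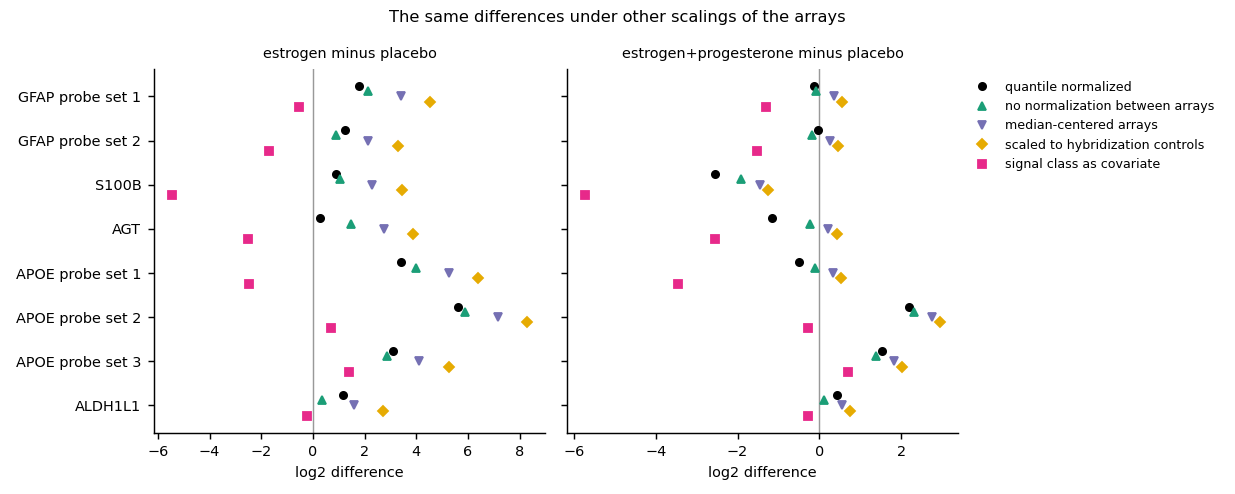
Log2 differences of the 8 probe sets from placebo under quantile normalization, 3 other scalings of the arrays and the signal class as a covariate. For estrogen minus placebo all 8 are above 0 under the 4 scalings, up to 8.30 for APOE probe set 2 scaled to hybridization controls. The median of all tested probe sets moves from 0.17 to 2.30 under that scaling. With the signal class 6 of 8 are below 0, where the median of all tested is -0.19.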

How the data were processed

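RNA from captured cells of 6 monkeys was purified on small columns and labelled with biotin, per the labels' protocols. Deposited values are linear intensities, 1 for each probe set on each array, and they show that each array had been scaled to a mean of about 200 after trimming 2% from each end. Summarization software and genome build were not stated in those sources, so no positions are printed. Symbols come from the platform annotation supplied with the data, and 24956 probe sets had 1 symbol, 361 several and 27449 none.

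After 16 was added, intensities were converted to log2 and quantile normalized over the 52766 transcript probe sets, so differences of low signals are understated. The brighter 26383 probe sets by mean, from the 50th percentile up, were tested. Group means were fitted to the 6 arrays (limma 3.58.1, R 4.3.3) with 3 residual degrees of freedom, two-sided tests and Benjamini-Hochberg adjustment over 26383 probe sets at a threshold of 0.05. The fit was tested on simulated data. An exact permutation test of 2 against 2 was not used. A bound in folds sets one group's mean against the higher of floor and signal on each array of the other. Bounds are computed on the quantile-normalized log2 scale, so deposited signals can lie closer to the floor than a bound states.

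The 5 genes, the gene lists and the tests were chosen with earlier results of these data known. The rule for names takes every probe set of the 5 genes, 5 likest genes per marker, and per list the 3 genes with the smallest unadjusted p for estrogen minus placebo. A motif search planned for promoters was not run, since no sequences were used here. Alternatives were the offset, normalization, filter, each array left out, replicate block, prior, array weights, pairs of groups alone and signal class.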

Additional observations from a re-analysis of the deposited data

How the results depend on the processing

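No probe set of the 8 passed in the fits with other offsets, scalings, filters, a trended prior, pairs of groups alone or the signal class. Without array 1 of the pair given both hormones 5 of the 8 passed for that pair minus estrogen, and with array weights 1 passed for estrogen minus placebo. Counts over all probe sets were 0 in the other settings, and they became 434 for estrogen minus placebo with array weights and 0 to 4200 for estrogen plus progesterone minus estrogen when 1 array was left out, 4200 without animal 1 of estrogen plus progesterone. At an unadjusted p under 0.05 there were 2065 probe sets for estrogen minus placebo, 870 for both hormones against placebo and 464 for both hormones against estrogen, and over all settings these ran from 421 to 6865, 241 to 6542 and 122 to 10207. The median of all tested for estrogen minus placebo was 0.17, and it was -0.09 without normalization, 1.15 with median-centering and 2.30 with scaling to hybridization controls.

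With the signal class, estrogen minus placebo was -0.53 and -1.71 for GFAP probe sets 1 and 2, -5.46 for S100B, -2.51 for AGT, -2.47 for APOE probe set 1 and -0.24 for ALDH1L1, both hormones minus placebo was -0.28 for APOE probe set 2 and -0.28 for ALDH1L1, and both hormones minus estrogen was 0.19 for GFAP probe set 2. Both hormones minus placebo was 0.35 and 0.26 for GFAP probe sets 1 and 2, 0.22 for AGT and 0.33 for APOE probe set 1 with median-centering, 0.56, 0.46, 0.42 and 0.53 with scaling to hybridization controls, and with an offset of 64 it was 0.10 for GFAP probe set 2 and 0.046 for APOE probe set 1. These scalings move all probe sets together, and the median of all tested for this comparison was -0.03, 0.28 with median-centering and 0.49 with hybridization controls. The cause of the changes with the signal class was not tested.

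Leaving out 1 array, both hormones minus placebo ran from -1.30 to 1.02 and from -1.52 to 1.45 for GFAP probe sets 1 and 2, -5.74 to 0.63 for S100B, -2.55 to 0.23 for AGT, -3.45 to 2.43 and -0.28 to 4.66 for APOE probe sets 1 and 2, and -0.60 to 1.44 for ALDH1L1. Both hormones minus estrogen ran from -2.78 to 0.19 for GFAP probe set 2, and estrogen minus placebo kept its sign in all 8.

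The labels number animals 1 and 2 in each group with no statement of pairing, and deviations of same-numbered arrays correlated at -0.03, -0.06 and 0.08. With the replicate number as a block 0 probe sets were called in each comparison, with 2072, 808 and 765 at an unadjusted p under 0.05. In this balanced layout a block cannot move a difference between groups. By Spearman's rho 9 to 130 genes tied at 1.0 with each marker, so it gave no ranking. The filter at the 75th percentile left out APOE probe set 3 and ALDH1L1, which have no value there. Signals near the floor limit the placebo values of APOE, ALDH1L1 and the dimmer GFAP probe set.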
